A study of Homo sapiens with 13 samples.

Results

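The first hour of the growth factor response was followed in MCF10A cells from 20 to 60 min after stimulation. MCF10A is a spontaneously immortalised line of normal human mammary epithelium. All cells had been kept without serum for 24 h, and were then left unstimulated or given EGF or a serum mixture. The mixture, called serum here, combined heat-inactivated horse serum with insulin, cholera toxin and hydrocortisone, whereas EGF was given by itself. The build-up rested on 6 of the 13 arrays of the series: EGF and serum at 20, 40 and 60 min, 1 array each. Each 60 min array was set against the 20 min array of the same stimulus, with the 40 min array as the middle point. The 1 unstimulated array gave the starting level, and the 6 arrays of 120, 240 and 480 min helped to estimate the spread. No stimulus and time had a second array. The EGF and serum arrays of a time were therefore the 2 samples of that time. The fit over the 12 stimulated arrays took out a constant difference between the stimuli. Its p-values measure the spread that was left, which also holds any difference between the stimuli in their time course. The concentration of EGF used for stimulation is not given in the sources used here, beyond the 10 ng/ml of the growth medium.

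Growth factors and serum switch on immediate early genes without any need for new protein. Receptor signalling through ERK and p38 activates transcription factors already present in the cell, such as CREB and SRF with its ELK partners. The earliest products include transcription factors of the FOS, EGR, ATF and NR4A families. Others are secreted factors and proteins that shut the signal down, including phosphatases and mRNA decay factors. Many of these transcripts are short-lived, so that a level can peak and drop within the hour, while secondary and delayed genes continue to build up.

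The values were deposited signals, 1 per probe set and array on a linear scale, with a 2% trimmed mean of 150.04 to 150.05 on the 13 arrays. A probe set is the group of array probes that reports 1 transcript. Differences below are on the scale of log2(signal + 6) after quantile normalization, where adding 6 understates the change of dim genes. Basal epithelial keratins were bright on the 6 arrays, with KRT5 at 3823.2 to 5082.7 and KRT14 at 4862.9 to 6491.1. Of the luminal keratins, KRT18 was at 2615.7 to 3432.6, KRT8 at 486 to 684.9 and KRT19 at 0.7 to 2.6. The leukocyte marker PTPRC was at 0.3 to 12.8 and the endothelial marker VWF at 1.2 to 3.2, whereas CD14 (186.9 to 286.2) and DCN (284.1 to 405.4), markers of monocytes and fibroblasts, were not at background. The serum array of 20 min stood apart: 33.3% of its probe sets had a signal under 20, against 37.3% to 39.3% on the other 5 early arrays, and its median log2 value before normalization was 5.70 against 5.45 to 5.52. The summed signal of 10 markers of other cell types was also highest there, at 802.2 against 590.3 to 726.4. Sums of basal and luminal markers were lowest on the same array, at 12786.9 against 14083.6 to 16395.6 and at 3302.6 against 3677 to 4275.6. The part of all these markers in the results was not tested. Leaving this array out turned the sign of the difference between 60 and 20 min in FOS, DAPP1, USP5, MYC and DUSP6. The EGF array of 20 min carries 20 min in its title and 40 min in its description, and the title was used. On it 14 of the 16 measured immediate early transcription factors were below their level on the EGF array of 40 min. The same count for the serum arrays of 20 and 40 min was 13 of 16.

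No gene passed the threshold for a change between 20 and 60 min in the limma fit over the 12 stimulated arrays, with 0 of 7731 genes at an adjusted p under 0.05 (0%). At an unadjusted p under 0.05 there were 563 genes, 7.28% of those tested, of which 284 were higher and 279 lower at 60 min. The lowest adjusted p was 0.144, shared by 4 genes described below: PTGS2, CCN2, KLF7 and IL36G. The same threshold was passed by 0 genes (0%) from 20 to 40 min, from 40 to 60 min, and for 40 min against the mean of 20 and 60 min. In that order 336, 269 and 244 of the 7731 genes had an unadjusted p under 0.05, each fewer than the 563 above. With a variance that depends on brightness and robust variances, an alternative of the same limma fit, 13 genes passed between 20 and 60 min. In that fit 10 genes rose (0.129% of those tested): CCN2, PTGS2, TNFAIP3, TUFT1, KLF7, INHBA, LIF, FERMT2, MAFF and EGR1. The 3 that fell (0.0388%) were ATP1B1, FOLR1 and DEGS1. With a stricter filter on dim genes the ordinary fit called 4 of 5588 genes, all higher (0.0716%): PTGS2, KLF7, CCN2 and TUFT1. On simulated arrays with 200 changed genes of 7731, the ordinary 60 against 20 min fit recovered 66.4% of 2-fold and 96.6% of 4-fold changes, with 4.8% false calls. The simulated arrays had independent noise and the same added change in both stimuli, with no difference between the stimuli. These shares therefore need not hold for the real arrays, and they do not tell how many real changes were missed.

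A simple fold rule kept each stimulus apart. A gene counted as higher or lower when both its EGF pair and its serum pair of arrays changed by at least 1.5-fold in the same direction. Of 7731 genes 88 were higher (1.14%) and 56 lower (0.724%) at 60 than at 20 min, while 85 (1.1%) passed 1.5-fold in opposite directions in the 2 stimuli. Without quantile normalization the split was 68 higher and 89 lower. Genes raised in the first hour, 275 in all, were those whose mean over the 6 early arrays was at least 1.5-fold above the unstimulated array, a measure that does not favour a late or an early peak. Among these 275 genes 24 were higher (8.73%), 1 was lower (0.364%) and 8 moved in opposite directions (2.91%). The sign of the change was positive in both stimuli for 118 of them (42.9%, against 27.3% of all genes), and negative in both for 43 (15.6%, against 29.6%). The 247 genes at least 1.5-fold below the unstimulated array in the same mean gave 3 higher (1.21%), 7 lower (2.83%) and 16 opposite (6.48%). Raised and lowered genes were dimmer than all genes, with median log2 means of 5.80 and 5.68 against 7.16. The part of brightness in these shares was not tested. In the EGF pair alone 61 of the 275 raised genes passed 1.5-fold upward (22.2%, against 5.29% of all genes) and 17 downward (6.18%, against 5.25%). In the serum pair alone 77 passed upward (28%, against 6.93%) and 24 downward (8.73%, against 5.89%).

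**Figure D1:**
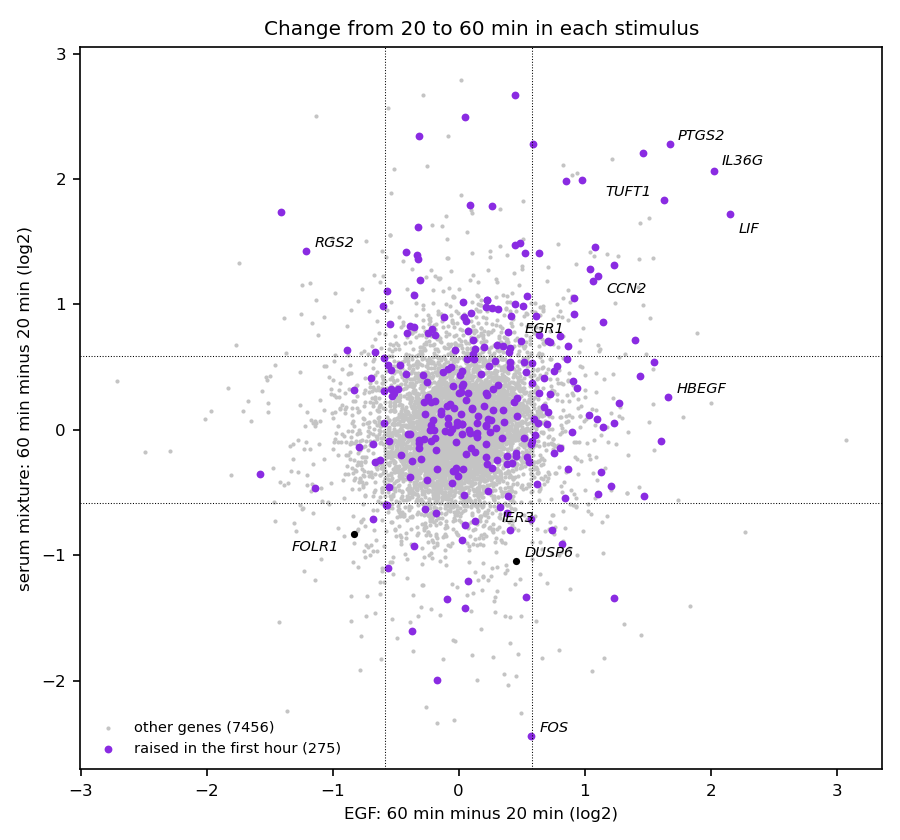
Change from 20 to 60 min after EGF (horizontal, log2) against the change after serum (vertical, log2) for 7731 genes, 1 array per stimulus and time; violet points are the 275 genes raised in the first hour, black points FOLR1 and DUSP6, and dotted lines mark 1.5-fold. The upper right corner holds PTGS2, IL36G, LIF and TUFT1, while FOS, HBEGF, RGS2, IER3 and DUSP6 lie off the diagonal.

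Secreted cytokines supplied some of the largest build-ups. LIF encodes a cytokine that signals through gp130 and STAT3. Its signal was 53 on the unstimulated array. After EGF it was 56.8, 123.9 and 272.7 at 20, 40 and 60 min, and after serum 75.4, 127.1 and 241. Both series started near the unstimulated level and were higher at each later time, and the 20 and 60 min values did not overlap. The difference of LIF was 1.94 (SE 0.32, 3.84-fold, limma adjusted p = 0.305; 0.0117 with the variance trend), and the steps from 20 to 40 and from 40 to 60 min were nearly equal, at 0.96 and 0.98. IL36G, an epithelial cytokine of the IL-1 family, had the largest mean difference among the raised genes, 2.04 (SE 0.27, 4.12-fold, limma adjusted p = 0.144). It was also among the dimmest genes tested. IL36G gave 1.6, 13.3 and 24.9 after EGF and 18.8, 25.3 and 78.7 after serum, against 8.8 unstimulated, so the serum value of 20 min exceeded the EGF value of 40 min. Over the alternatives its difference ran from 1.18 to 3.18, the widest spread coming from the offset.

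Other cytokines followed with larger differences between the stimuli. CCL20, a chemokine for dendritic cells and lymphocytes, went from 196.1 to 360.5 after EGF and from 190.1 to 764.9 after serum, a difference of 1.42 (SE 0.44, limma adjusted p = 0.557). IL6 stood at 43.4, 66.7 and 125.2 after EGF and at 33.4, 63.3 and 47.5 after serum, above its unstimulated 4.9 on all 6 arrays. The IL6 serum series was thus highest at 40 min while the EGF series was highest at 60 min. The 11 tested members of the cytokine and chemokine list had a median difference of 0.64, against -0.01 over all genes. Of these 11, 8 were higher in both stimuli and 0 lower in both, against 27.3% and 29.6% of all genes. In either direction 0 of the 11 passed the limma threshold. The median of the EGF pairs was 0.94 and that of the serum pairs 0.43. CXCL1, a neutrophil chemokine, had the smallest difference of the list at 0.02.

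Prostaglandin signalling had a producer and a receptor among the higher genes. PTGS2 encodes the inducible cyclooxygenase that starts prostaglandin synthesis, and PTGER4 a receptor for prostaglandin E. From 35.2 unstimulated, PTGS2 was at 74.6, 243.5 and 248.7 after EGF and at 103.8, 407.4 and 494.9 after serum. Nearly all of its build-up lay before 40 min, with steps of 1.83 and 0.15. The 60 against 20 min difference was 1.98 (SE 0.27, 3.94-fold, limma adjusted p = 0.144; 0.00156 with the variance trend). PTGER4, at 94.7 unstimulated, read 118.3, 291.6 and 339.8 after EGF and 196.5, 631.4 and 922.2 after serum, a difference of 1.83 (SE 0.37, 3.57-fold, limma adjusted p = 0.349). The other 5 tested members of the prostaglandin list lay between -0.25 and 0.03, and the median of the 7 was -0.02.

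The 250 bases before the annotated start of IL36G and PTGS2, the largest increases with a RefSeq promoter entry (GRCh38.p14), are printed with those of EGR1 and FOS. The last 2 were chosen after their values were seen, for a level that held and a level that dropped. IL36G lies at chr2:112977756-112978005 (plus strand), PTGS2 at chr1:186680424-186680673 (minus strand), EGR1 at chr5:138465229-138465478 (plus strand) and FOS at chr14:75278578-75278827 (plus strand). Capitals mark matches to a CArG box (the SRF site), NF-kB, CRE (TGACGTCA), AP-1 (TGANTCA), EGR (GCGGGGGCG or GCGTGGGCG) and TATA-box motifs (TATAAA) on either strand. None of these overlapped in the windows shown.
IL36G: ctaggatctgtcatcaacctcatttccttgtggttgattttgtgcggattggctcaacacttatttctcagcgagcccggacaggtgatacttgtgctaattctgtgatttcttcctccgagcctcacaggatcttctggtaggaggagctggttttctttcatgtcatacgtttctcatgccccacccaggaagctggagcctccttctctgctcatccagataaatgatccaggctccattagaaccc
PTGS2: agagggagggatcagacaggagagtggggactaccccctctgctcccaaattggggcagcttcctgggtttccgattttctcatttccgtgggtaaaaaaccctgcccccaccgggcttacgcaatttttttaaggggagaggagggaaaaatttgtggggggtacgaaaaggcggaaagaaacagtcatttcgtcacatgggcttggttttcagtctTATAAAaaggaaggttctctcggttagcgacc
EGR1: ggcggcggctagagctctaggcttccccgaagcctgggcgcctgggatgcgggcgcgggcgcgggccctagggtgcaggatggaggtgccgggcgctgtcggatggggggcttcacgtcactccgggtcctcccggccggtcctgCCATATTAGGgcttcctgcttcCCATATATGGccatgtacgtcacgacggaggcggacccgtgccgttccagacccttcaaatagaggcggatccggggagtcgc
FOS: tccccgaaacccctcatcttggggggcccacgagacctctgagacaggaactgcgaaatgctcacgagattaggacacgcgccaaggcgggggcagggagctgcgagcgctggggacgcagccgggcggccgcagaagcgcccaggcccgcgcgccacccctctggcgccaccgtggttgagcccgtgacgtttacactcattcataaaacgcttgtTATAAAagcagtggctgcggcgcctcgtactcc
EGR1 held 2 CArG boxes, beginning 105 and 83 bases before the start, each matching the motif on both strands. PTGS2 and FOS each held a TATA motif, 32 and 33 bases before the start, and IL36G held none of the motifs searched. The shorter CRE part TGACG, not marked in capitals, was counted on either strand: 1 match in PTGS2, 1 in FOS, 2 in EGR1 and 0 in IL36G. A match is a description of letters and not of binding, and sites beyond these 250 bases lie outside the windows shown.

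Among immediate early transcription factors, EGR1 and EGR3 were higher at 40 than at 20 min and about level from there. EGR1 is a zinc-finger factor that responds to ERK and SRF. Its signal was 150.7 unstimulated, then 473.5, 984.6 and 908.8 after EGF and 353.5, 644.8 and 685.7 after serum. The 20 and 60 min values of EGR1 did not overlap, and the difference was 0.92 in each stimulus (mean 0.92, SE 0.17, 1.89-fold, limma adjusted p = 0.331; 0.0262 with the variance trend). All of it lay in the step to 40 min (0.92), and the step from 40 to 60 min was 0.00. A second EGR1 probe set, dimmer, gave 1 after EGF and 0.00 after serum. EGR3, its relative, went from 113.3 to 184.3 and 182.4 after EGF and from 153 to 221.9 and 253.6 after serum, against 11.5 unstimulated, a difference of 0.70 (SE 0.25, limma adjusted p = 0.619). NR4A1, an orphan nuclear receptor, did likewise, with 35.5, 88.7 and 80.7 after EGF and 85.8, 198.1 and 187.2 after serum.

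FOS and ATF3 had their highest values at 40 min. FOS, the partner of JUN in AP-1, read 33.1 unstimulated, 239, 500.9 and 362 after EGF, and 789.6, 932.4 and 142.4 after serum. The FOS serum value of 60 min was the lowest of the 6, while the EGF value of 60 min remained above that of 20 min. The step from 40 to 60 min averaged -1.55 for FOS, at -0.46 after EGF and -2.63 after serum, the most negative of the 275 raised genes. Its 60 against 20 min difference of -0.93 had an SE of 0.92 (limma adjusted p = 0.842) and turned to 0.32 when the serum array of 20 min was left out. ATF3, a stress-inducible ATF/CREB factor, read 27.7, 74.8 and 48.9 after EGF and 177.5, 449.8 and 286.4 after serum, against 21.7 unstimulated. The steps of ATF3 averaged 1.30 and -0.59, and at 60 min it was still 0.71 above 20 min in each stimulus.

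The remaining AP-1 genes were less uniform. FOSB stood at 18.1, 35.3 and 51.4 after EGF but at 172.9, 246.8 and 173.9 after serum. JUN reached 736.3 at 60 min of EGF from 457.8 at 20 min, and after serum read 615.2, 998.6 and 722, a difference of 0.43 (SE 0.21). Its 3 other probe sets gave 0.40, -0.039 and -0.42. JUNB went from 303.1 to 579.8 and from 282.5 to 369.5. MYC, a growth regulator already at 2494.1 without stimulation, differed by 0.11 (SE 0.27) and took no common direction. Of the 16 tested members of the immediate early factor list, 11 were higher at 60 min in both stimuli and 0 lower in both. Over all genes these shares were 27.3% and 29.6%, and 0 of the 16 passed the limma threshold in either direction. The median of that list was 0.62 from 20 to 40 min and -0.02 from 40 to 60 min, against -0.01 and 0.00 over all genes. From 40 to 60 min 3 of its members were up in both stimuli by a mean of at least 1.2-fold (IER2, KLF4 and FOSL1), and 4 were down (FOS, ATF3, ZFP36 and EGR4), against 9.38% and 8.34% of all genes.

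**Figure D2:**
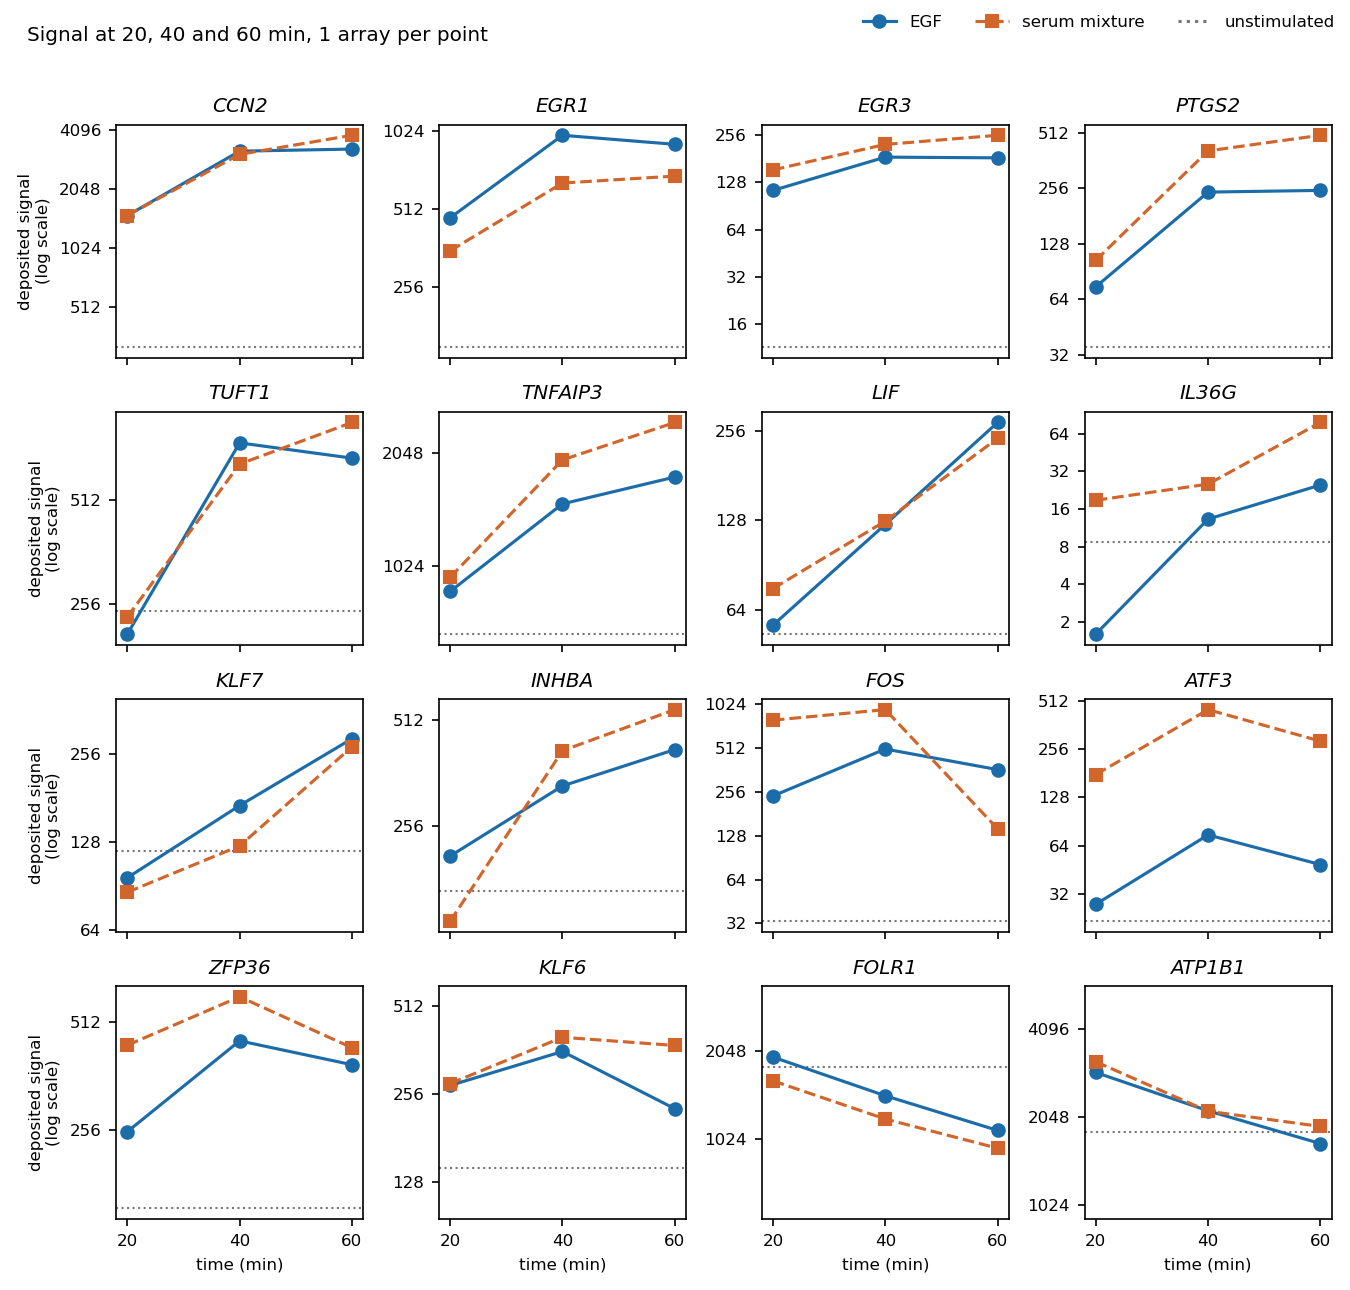
Deposited signal (log scale) of 16 genes at 20, 40 and 60 min after EGF (circles) and serum (squares), 1 array per point, with the unstimulated array as a dotted line. LIF, IL36G and KLF7 are higher at each later time, PTGS2, TUFT1 and EGR1 gain most by 40 min, FOS and ATF3 are highest at 40 min, and FOLR1 and ATP1B1 are lowest at 60 min.

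CCN2 and CCN1 encode secreted matricellular proteins under SRF and YAP control. CCN2 had the lowest p of any gene in the fit with a variance trend (adjusted p = 0.00042). From 321.3 unstimulated it was at 1499.3, 3190.2 and 3269.1 after EGF and at 1500.5, 3071.9 and 3842.6 after serum. The stimuli matched closely at 20 and 40 min, and no value of 20 min reached one of 60 min. The difference of CCN2 was 1.17 (SE 0.15, 2.24-fold, limma adjusted p = 0.144). CCN1 went from 1580.3 to 2742.2 after EGF and from 1567.6 to 2810.1 after serum (0.78, SE 0.19, limma adjusted p = 0.555), and its other probe set gave 0.70. Other members of the SRF, MRTF and YAP list were spread about 0: of 15 tested, 9 were higher and 4 lower in both stimuli, with a median of 0.17. Over all genes 27.3% were higher and 29.6% lower in both.

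Regulators that restrain signalling were split. TNFAIP3 encodes A20, an NF-kB inhibitor. It read 670.6 unstimulated, 872.7, 1498 and 1767.8 after EGF and 951.9, 1964.9 and 2475.5 after serum. TNFAIP3 was up at both steps (0.86 and 0.30), with a difference of 1.16 (SE 0.18, 2.24-fold, limma adjusted p = 0.224; 0.00156 with the variance trend), and 1.27 on its other probe set. DUSP5, a nuclear ERK phosphatase, went from 77.9 to 151.6 after EGF and from 131.3 to 269.3 after serum (0.98, SE 0.19, limma adjusted p = 0.331). The other 7 tested MAP kinase phosphatases lay between -0.29 and 0.14. Of these, DUSP6, a cytoplasmic ERK phosphatase, went from 560.5 to 772 after EGF and from 740.7 to 358.7 after serum, and DUSP1 from 1725.6 to 1458.5 and from 3693.3 to 4985.8. Other probe sets of these genes gave 0.08 and -0.22 for DUSP6 and 0.60 for DUSP1. TRIB1, a pseudokinase, was higher in both stimuli (151.4 to 331 and 278 to 782.1), at 1.27 (SE 0.58). ZFP36, which destabilises AU-rich mRNAs such as those of cytokines, peaked at 40 min with 454.3 after EGF and 603.9 after serum, and was at 389.4 and 434.6 at 60 min.

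The rest of the 24 had varied roles. TUFT1, which encodes tuftelin, was at its unstimulated 244.6 or slightly below at 20 min, with 209.6 after EGF and 234.9 after serum. At 40 min TUFT1 read 747 and 648.8, and at 60 min 674.9 and 855.5, a difference of 1.73 (SE 0.25, 3.32-fold, limma adjusted p = 0.180; 0.00203 with the variance trend). INHBA, the activin A subunit, read 210.5, 332.5 and 421.4 after EGF and 137.6, 418.3 and 546.7 after serum (1.48, SE 0.24, limma adjusted p = 0.298). Its serum value of 20 min lay below the unstimulated 167.8, and a dimmer probe set gave 0.52. MAFF, a small MAF factor, went from 280.5 to 520.7 and from 356.1 to 578.6 (0.77, SE 0.14; 0.23 on its other probe set), and PLAUR, the urokinase receptor, from 181.4 to 288.6 and from 259.6 to 700.5 (1.02, SE 0.35). PLAUR had 2 further probe sets, at 1.13 and -0.12. The remaining TESK1, FCMR, GPRIN2, CISH and GPSM3 had low signals: their log2 means lay between 4.91 and 6.22, and the other probe set of FCMR gave -0.07.

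KLF7 and FERMT2 built up without passing the 1.5-fold rule over the unstimulated array in the early mean. KLF7, a Krüppel-like factor, read 119.2 unstimulated, 96.6, 170.5 and 288.5 after EGF and 86.2, 124.1 and 270.7 after serum. Both 20 min values lay below the unstimulated one and both 60 min values above it, and the difference of KLF7 was 1.60 (SE 0.21, 3.03-fold, limma adjusted p = 0.144). FERMT2, the integrin activator kindlin-2, went from 303.3 to 341.7 and 571.2 after EGF and from 325.7 to 428.6 and 677.2 after serum, against 389.3 unstimulated (0.95, SE 0.19, limma adjusted p = 0.349). Most of its increase lay after 40 min (0.26, then 0.69).

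Lower genes of high signal were few. FOLR1, a folate receptor, was lower at each later time in both stimuli: 1944.9, 1434.7 and 1092.1 after EGF and 1613.5, 1194.7 and 949.3 after serum, from 1791.9 unstimulated. The FOLR1 difference was -0.83 (SE 0.16, limma adjusted p = 0.349; 0.0118 with the variance trend), but its other, dimmer probe set gave 0.29. ATP1B1, a sodium pump subunit, was above its unstimulated 1820.2 at 20 min (2904.7 after EGF, 3160.3 after serum) and back near it at 60 min (1659.6 and 1899.2), a difference of -0.83 (SE 0.14, limma adjusted p = 0.305). DEGS1, a ceramide-synthesis desaturase, went from 3558.4 to 2296.7 and from 3010.3 to 2310.6 (-0.58, SE 0.15), but its other probe set gave -0.034. NUCB2, the precursor of nesfatin-1, went from 316 to 183.2 and from 303.6 to 170.7 (-0.81, SE 0.17, limma adjusted p = 0.456). DDIT4, an mTORC1 inhibitor and the largest difference of the stress response list, read 1175.4 to 703 and 1259.2 to 975.5 (-0.58, SE 0.18).

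The other genes named by their rank had low signals. By the smaller of their pair changes the largest decreases were ZSCAN18, MMP16, SIMC1P1, GAP43, MPP3, ZDHHC14, ZNF696, FGF2, SLC66A1 and MAPK8, with differences of -1.80 (MMP16) to -0.87 (MAPK8) and no signal above 83.4 on the 6 arrays. MMP16, a membrane metalloproteinase, went from 47.2 to 14.1 and from 83.4 to 11.7. FGF2, a fibroblast growth factor, went from 42.7 to 19.2 and from 52.6 to 22.9 (-0.88, SE 0.33), with -0.77 on its other probe set. MAPK8, which encodes JNK1, gave -0.87, but 0.75 on its other probe set, and turned positive under 2 of the alternatives. The increases of that kind were RPLP2, MAP3K14, ZNF350, FCN2, CISH and SLC11A1, at 1.27 (CISH) to 1.69 (SLC11A1). MAP3K14, the NF-kB-inducing kinase NIK, went from 40.5 to 129.5 and from 29.1 to 68.4 (1.46, SE 0.30, limma adjusted p = 0.349).

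Agreement between stimuli depended on brightness. The genes tested were split by mean brightness into 4 equal bins. In the dimmest bin 53 were higher, 39 lower and 70 opposite by the 1.5-fold rule, so opposite changes outnumbered either direction. In the brightest bin 8 were higher, 2 lower and 1 opposite. Across genes the correlation between the EGF and serum changes was 0.12 over all 7731 genes, 0.03 in the dimmest bin and 0.42 in the brightest; genes are not independent replicates. Other probe sets of the same genes gave a further reading on the same arrays, not on further samples. Among the 88 higher genes, 20 had 24 further probe sets, of which 16 (66.7%) were higher in both stimuli. Among the 56 lower genes, 14 had 19, of which 8 (42.1%) were lower in both. For the 85 genes with opposite changes, 3 of 20 further probe sets (15%) repeated both signs. Over all genes tested 27.3% were higher and 29.6% lower in both stimuli. The 1.5-fold rule itself was passed again by 7 of the 24, 3 of the 19 and 0 of the 20 probe sets.

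**Figure D3:**
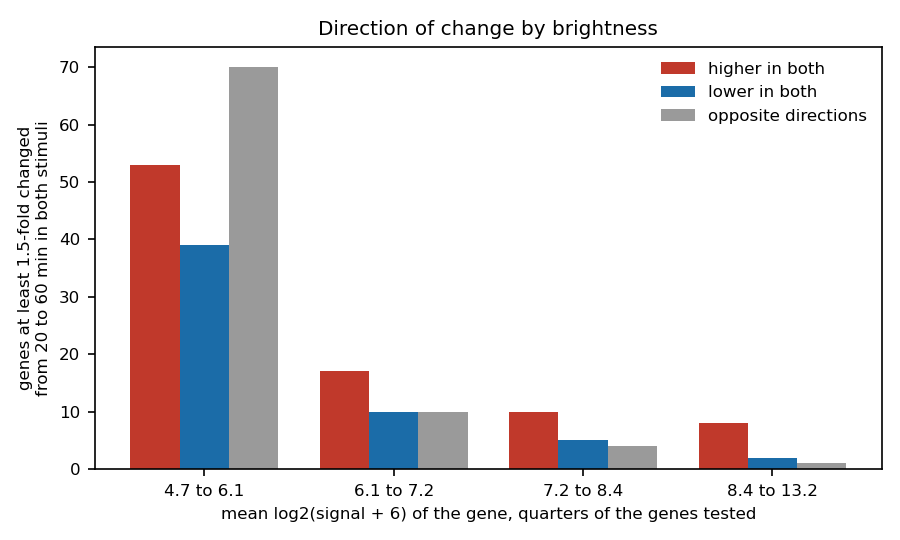
Number of genes (vertical) at least 1.5-fold higher in both stimuli (red), lower in both (blue) or changed in opposite directions (grey) from 20 to 60 min, in 4 equal bins of the mean log2(signal + 6) of the genes tested (horizontal). Opposite changes are the tallest bar in the dimmest bin (70 genes) and the shortest in the brightest (1 gene).

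The 40 min arrays were used to sort genes by their steps before and after that time. A step was called up or down when EGF and serum had the same sign and the mean step was at least 1.2-fold, and it was a description without a test. From 40 to 60 min 54 of the 275 raised genes were up (19.6%, against 9.38% of all genes) and 27 were down (9.82%, against 8.34%), while 194 were level or mixed. The share down was thus near that of all genes, and 0 genes passed the limma threshold for this step. Both steps were up in 13 raised genes (4.73%, against 0.504% of all): BHLHE40, CCL20, GPSM3, HBEGF, IL36G, INHBA, IRS2, LIF, PTGER4, RCAN1, TGIF1, TNFAIP3 and TRIB1. As many went up and then down (4.73%, against 2.1% of all): APPL1, ATF3, BCAM, CITED2, FOS, GSDMD, KLF6, NUDT6, PRAF2, PRLH, SEMA3A, USP5 and ZFP36. The first set had a median log2 mean of 8.14 and the second of 5.90. Down and then up, 18 raised genes (6.55%, against 2.74%) had a median of 5.11. The most common course with a called step was up and then level or mixed, in 63 raised genes (22.9%, against 6.67%), among them PTGS2, TUFT1, EGR1 and CCN2. Level or mixed also holds steps of opposite sign in EGF and serum, as for the signals of TUFT1 after 40 min. Level or mixed and then up were 23 (8.36%, against 6.13%), and level or mixed and then down 12 (4.36%, against 5.81%). Down and then level or mixed were 16 (5.82%, against 6.58%). Level or mixed at both steps were 115 (41.8%, against 69%). Both steps share the 40 min arrays, so an error of those arrays moves the steps in opposite directions. Both steps were down in 2 (0.727%, against 0.44%): MAF, a bZIP factor, and RAD23B, a nucleotide excision repair protein. The other probe sets of RAD23B differed from that: 60 against 20 min they gave -0.09 and 0.89, where the brightest gave -0.97.

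**Figure D4:**
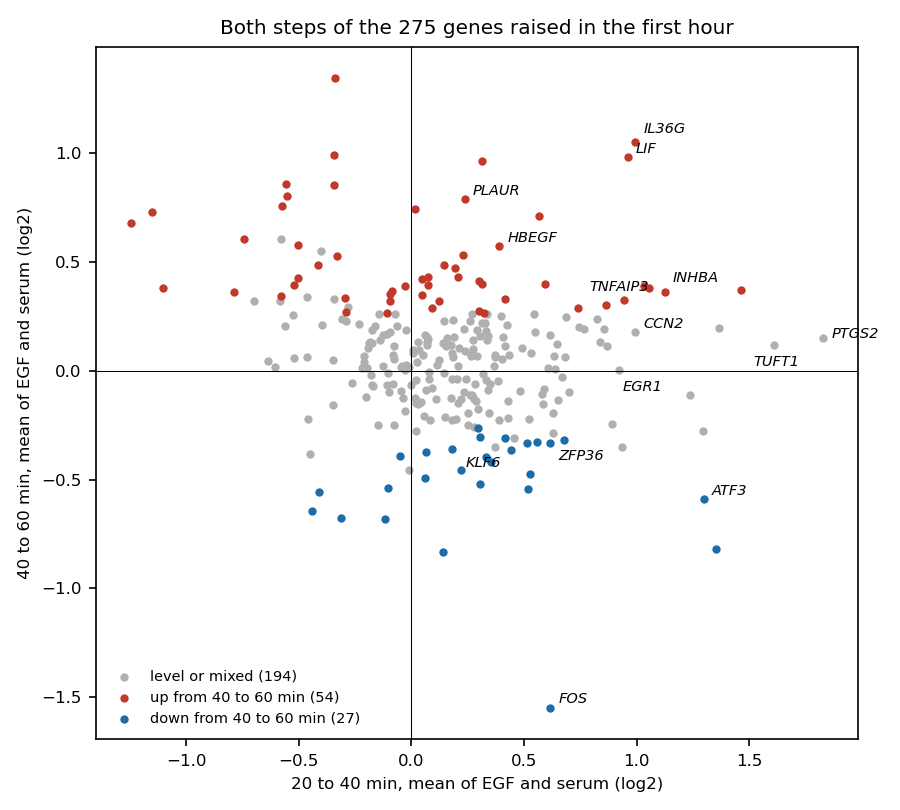
Step from 20 to 40 min (horizontal, log2) against the step from 40 to 60 min (vertical, log2), each the mean of EGF and serum, for the 275 genes raised in the first hour; red points are up and blue points down from 40 to 60 min, and grey points level or mixed. LIF and IL36G lie at the upper right, PTGS2 and TUFT1 far right near 0, and FOS at the bottom.

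Among the genes that were up at both steps, HBEGF, a ligand of the EGF receptor, went from 378.2 to 570.7 and 1206.5 after EGF and from 470.1 to 549.3 and 573.2 after serum. IRS2, an insulin receptor adaptor, went from 343.3 to 484.5 after EGF and from 326.6 to 943.2 after serum. BHLHE40, a repressor, went from 318.4 to 590.7 and from 473.7 to 713.1, with a difference of 0.71 (SE 0.32), and of 1.17 on its other probe set. The other probe sets of IRS2 and RCAN1 gave 0.65 and 0.30. RCAN1, a calcineurin inhibitor, was at 101.7 after EGF and 341.7 after serum at 60 min, from 83.2 and 102. Of these, the stimuli were closest for BHLHE40. KLF6, a tumour suppressor zinc-finger factor, was among the genes that turned: 274.2, 358.2 and 228.4 after EGF and 278.2, 400.6 and 375.6 after serum. At 60 against 20 min its brightest probe set gave 0.08 and the others 0.82 and -0.72. Other steep values from 40 to 60 min belonged to dim genes: GPRIN2, IL24, CISH, SLC27A5, TBL1X and DAPP1 upward, and GDF2, USP5, ZNF428, EFNA3 and MAF downward. For IL24, a cytokine of the IL-10 family, the signals were 26.6, 26.5 and 50 after EGF and 31.3, 12.5 and 37.7 after serum.

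In the fit with a variance trend the step from 20 to 40 min passed the threshold in 4 genes, all higher (0.0517%): PTGS2 (1.83, adjusted p = 0.00714), CCN2 (0.99, adjusted p = 0.00333), TUFT1 (1.61, adjusted p = 0.00872) and TNFAIP3 (0.86, adjusted p = 0.0328). From 40 to 60 min 0 genes passed in either fit. The largest steps of both stimuli by the 1.5-fold rule were otherwise of dim genes. Those from 20 to 40 min were ZNF350 and SLC11A1 upward, beside PTGS2, and ARPIN, RAB3IL1 and NKX2-5 downward. Those from 40 to 60 min were NKX2-5, CORO7 and RAB6B upward and TTC38, MMP16 and B3GNT3 downward. NKX2-5, a cardiac homeobox gene, read 39.8, 6.9 and 34.4 after EGF and 38.9, 9.6 and 57.4 after serum, a low value on both 40 min arrays.

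After 60 min the median level of the 24 higher genes was lower again. They were chosen in part for a high value at 60 min, and such a choice favours a lower value afterwards. Their median over the unstimulated array was 0.72 at 20 min, 1.59 at 40 min and 2.12 at 60 min, the times that chose them, and then 1.40 at 120 min, 0.90 at 240 min and 0.58 at 480 min. At least 1.5-fold above the unstimulated array in both stimuli were 24 of 24 at 60 min, a count favoured by that choice, 21 at 120 min and 8 at 480 min. LIF and IL36G were exceptions in that their means at 120 min (3.17 and 2.3) lay above those at 60 min (2.29 and 1.84). EGR1 was at 2.41 at 60 min and at 0.97 at 120 min, and TNFAIP3 at 1.60 and 0.70. For the 13 genes that went up and then down, chosen for that course, the median was 1.27 at 40 min and 0.70 at 60 min, and then 0.62 at 120 min. FOLR1 did not return within the series, standing at -0.89 at 60 min and -1.24 at 480 min.

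The build-up was also compared between EGF and serum. The difference between the EGF and serum slopes, scaled to the change over 40 min, was tested on the 6 early arrays with 2 residual degrees of freedom. In the limma fit 0 of 7731 genes passed (0%), with 576 of the 7731 at an unadjusted p under 0.05. With the variance trend 5 passed, 4 with a larger change after EGF (0.0517%) and 1 with a larger change after serum (0.0129%). IER3, an ERK-regulated survival factor, was the clearest, at 1.54 (SE 0.13 and adjusted p = 0.000443 with the variance trend). Its signals were 2389.1, 3268.6 and 4030.1 after EGF but 1840.3, 1419.9 and 1126.4 after serum, on either side of the unstimulated 1293.2 by 60 min. CXCL8, the chemokine interleukin-8, read 1559.4, 2390.2 and 3394.9 after EGF and 1399.7, 1581.3 and 1591.7 after serum (1.01, adjusted p = 0.0123). HBEGF gave 1.40 (adjusted p = 0.0409), and its other probe set changed by 2.15 after EGF and 0.36 after serum. SPN, which encodes CD43, completed the 4 (60.3 to 141.1 after EGF, 191.4 to 48.4 after serum). GAS1, a growth arrest protein, went the other way at -1.68 (adjusted p = 0.0129), with 241.7, 225 and 195.7 after EGF and 340.6, 595.3 and 903.3 after serum.

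RGS2, a G protein regulator and cAMP target, showed opposite changes without passing that test. It read 146.6, 90.6 and 60.4 after EGF and 454.5, 1338.7 and 1250.6 after serum, from 117.7 unstimulated. The components of the serum mixture cannot be told apart in these arrays. The cAMP and CREB list had a median difference of 0.61 over 10 tested genes, 0.33 in the EGF pairs and 0.74 in the serum pairs. In both stimuli 7 of the 10 were higher and 0 lower, against 27.3% and 29.6% of all genes, and 0 passed the limma threshold. With the stricter filter the median of the list was 0.36. PDE4B, a cAMP phosphodiesterase, went from 41.8 to 53.7 after EGF and from 30.7 to 97 after serum. The largest slope differences by value alone belonged to dim genes, DPYSL3, TOLLIP and KIF1C for EGF and CRYBB2P1, PLCD1 and TAOK1 for serum, with signals of 1.7 to 70.8 on the 6 arrays.

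Other gene lists, counted against a median of -0.01 and shares of 27.3% and 29.6% for both stimuli up and down over all genes, had medians nearer 0. Of 22 delayed early transcription factors 11 were higher and 5 lower in both stimuli, with a median of 0.15. The 8 NF-kB feedback genes had a median of 0.17, with TNFAIP3, PLAUR and NFKBIE, an NF-kB inhibitor, at least 1.5-fold higher in both stimuli. For 17 FOXO and growth arrest genes the median was -0.11, with 4 up and 8 down in both stimuli. BCL6, a repressor in that list, went from 288 to 118.5 after EGF and from 291.3 to 276.6 after serum. All 7 interferon response genes had a negative mean difference, with a median of -0.41. That median was -0.80 in the EGF pairs and -0.02 in the serum pairs, 4 of the 7 were lower in both stimuli, and IRF7, a transcription factor of that response, was at -0.91 (SE 0.42). The medians of 11 housekeeping genes and 4 basal epithelial markers were -0.04 and 0.05. Markers of other cell types had 4 tested members with a median of -0.42, all of them fibroblast or monocyte genes. Of these, CD14, COL1A1 and PDGFRB were lower in both stimuli, and PDGFRB by at least 1.5-fold at signals of 7.7 to 33.6. The part of these markers in the results was not tested. In none of the lists did a member pass the threshold of the ordinary limma fit in either direction.

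**Figure D5:**
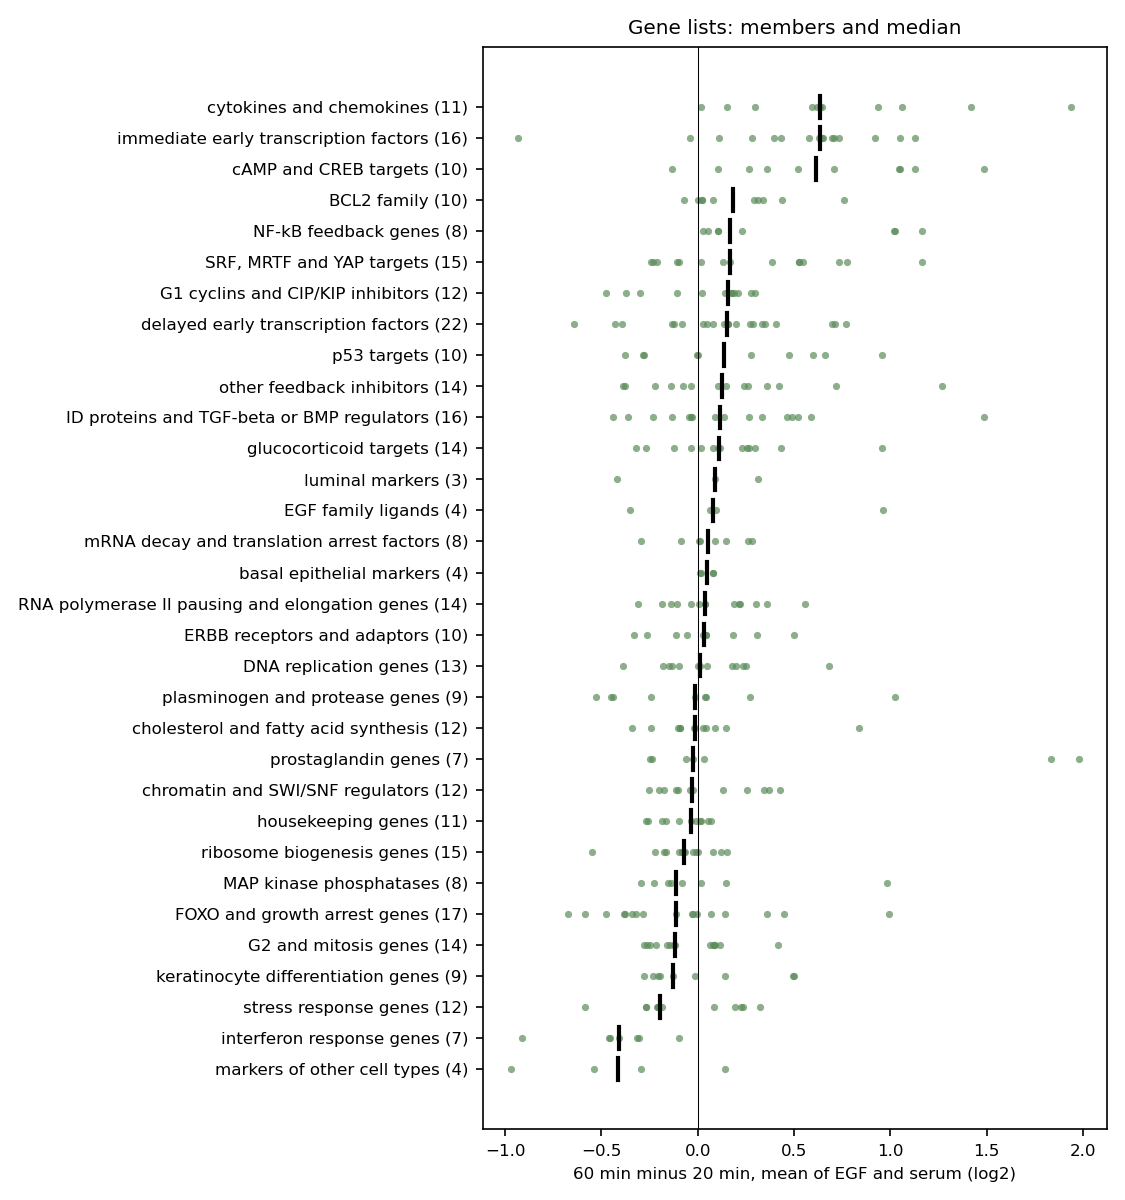
Difference between 60 and 20 min (horizontal, log2, mean of EGF and serum) for every tested member (points) of 32 gene lists, with the number tested in parentheses and the median as a black bar. Cytokines and chemokines, immediate early factors and cAMP targets have medians of 0.61 to 0.64, and interferon response genes a median of -0.41.

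The promoters of the higher genes were searched for the motifs named above in windows from 250 bases before to 50 bases after the start. A RefSeq entry was found for 19 of the 24 raised and higher genes and for 6457 of the 7731 genes tested. NF-kB matches were present in 6 of the 19 (31.6%, against 6.86% of the 6457): CCL20, CCN2, IL6, PTGER4, TESK1 and TNFAIP3. TATA matches were present in 4 (21.1%, against 5.68%): CCL20, CCN2, INHBA and PTGS2. A CArG box was found in EGR1 alone (5.26%, against 1.27%), a CRE in MAFF alone (5.26%, against 3.5%), and an AP-1 and an EGR match in PLAUR alone (5.26% each, against 4.55% and 9.87%). The shorter CRE part TGACG was present in 5 (26.3%, against 35.6%): EGR1, GPRIN2, IL6, MAFF and PTGS2. Among the 24 promoters of raised genes that were down from 40 to 60 min, 8.33% held an NF-kB match and 12.5% a TATA match. Among the 48 of raised genes that were up, the shares were 10.4% and 8.33%. Over the 227 promoters of all raised genes they were 10.6% and 14.1%.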

How the data were processed

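RNA was measured on 13 arrays. The authors deposited a linear intensity for each of 22277 probe sets, made with MAS5 per the submitters' processing notes, with the version not given in the sources used here. After 62 controls were set aside, 19064 probe sets had exactly 1 symbol in the platform annotation. Log2(intensity + 6) was computed from the deposited values and quantile normalized (R 4.3.3, limma 3.58.1). Each gene was read from its brightest probe set, and 7731 of 11963 genes with a mean of at least 4.68 were tested. The limma fit (lmFit, eBayes) had time as a factor and stimulus as a pairing block over 12 arrays, with 5 residual degrees of freedom and two-sided p-values adjusted by Benjamini-Hochberg.

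Genes named by rule were the 12 largest differences each way by the smaller of both pair changes at 60 min, the 3 largest each way at each step and for EGF minus serum, the 8 most positive and negative raised genes from 40 to 60 min, the 2 largest of each list, and 12 genes always named (FOS, FOSB, EGR1, EGR3, JUN, MYC, DUSP6, HBEGF, IL6, LIF, CCN1, CCN2). Others were named after their values were seen. Members, lists and tests were chosen with earlier results of these data known. The rule for promoters also asked for the largest decreases, which were dim genes and are not printed. Figures used Python 3.11.15 and matplotlib 3.10.9, and the fit was tested on simulated data. Alternatives varied the offset, normalization, filter, probe set rule, variance model, arrays and margins.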

Additional observations from a re-analysis of the deposited data

Results flagged for a closer look

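Among the 6 early arrays, the serum array of 20 min had the highest median log2 value before normalization, 5.70 against 5.45 to 5.52. The gap to its nearest neighbour was 0.711 of the whole range, above the critical 0.625 of Dixon's test for 6 samples. On the same array the fewest probe sets lay below a signal of 20, at 33.3%, with a gap of 0.666 of the range. Chance marks about 1 in 20 such groups. Values without that array are given with the effects of the processing.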

How the results depend on the processing

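The count of genes past the limma threshold between 20 and 60 min was 0, and 0 to 1 when each array was left out in turn: GPSM3 without the EGF array of 20 min (2.33, adjusted p = 0.0455) and ZNF747 without the serum array of 20 min (2.09, adjusted p = 0.0388). It was 4 with the stricter filter and 13 with the variance trend, which also gave 4 from 20 to 40 min and 5 for EGF minus serum. Counts by fold depended on the filter, the offset and the fold. Higher genes in all numbered 43 with 4 times the offset, 280 with no filter, 35 with the stricter filter and 22 at 2-fold, and lower genes 13, 281, 14 and 5, and 89 without quantile normalization. In the EGF pair alone 409 were higher and 406 lower, and in the serum pair alone 536 and 455; single pairs were added after seeing the data, as were the counts of raised genes. Raised genes that were higher numbered 70 with no filter, 10 at 2-fold, and 61 and 77 in the EGF and serum pair alone. Raised genes that were lower numbered 4 with no offset, 0 with 4 times the offset, the stricter filter or 2-fold, 3 without quantile normalization, 45 with no filter, and 17 and 24 in the EGF and serum pair alone. Raised genes up from 40 to 60 min numbered 22 with 4 times the offset, 200 with no filter, 23 with the stricter filter, 97 with no margin, 15 with a 1.5-fold step and 17 when raised meant 2-fold. Those down numbered 47 with no offset and 10, 155, 10, 56, 7 and 9 under the same settings in that order. Of 32 list medians 23 moved by over 1.5 times or turned under some alternative, and 5 of these turned sign: cholesterol and fatty acid synthesis, chromatin regulators, housekeeping, MAP kinase phosphatases, and plasminogen and protease genes. The median of cAMP targets ran from 0.36 to 0.71, of FOXO genes from -0.24 to -0.031 and of other cell types from -0.45 to -0.076. Of 47 named genes 37 kept their sign under all alternatives run. MAPK8 turned to 0.46 with 4 times the offset and 0.60 without quantile normalization. With 1 array left out at a time, 9 genes turned sign. The differences ran from -2.19 to 0.32 for FOS, from -0.066 to 0.56 for DAPP1, from -0.21 to 1.28 for USP5, from -0.016 to 0.24 for MYC and from -1.09 to 0.50 for DUSP6, each turned by leaving out the serum array of 20 min. They ran from -0.37 to 1.66 for FOSB and from -0.0079 to 1.93 for HBEGF (turned without the EGF array of 20 min), from -2.22 to 0.046 for EFNA3 (serum, 60 min) and from -0.51 to 1.10 for SLC27A5 (EGF, 60 min). The cause of these changes was not tested. The stimulus was the only block the labels allow; 1 array per stimulus and time limits the precision of every value.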

Other observations

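Over all genes tested 27.3% were higher and 29.6% lower in both stimuli at 60 than at 20 min, and gene groups outside the growth factor pathway are set against these shares. Of 14 glucocorticoid targets 4 were higher and 3 lower in both stimuli, with a median of 0.11. GADD45B, a stress and growth arrest gene, had the largest difference of that list, with 114.4 and 159.4 at 20 and 60 min of EGF and 173.5 and 482.5 of serum (0.96, SE 0.38, limma adjusted p = 0.652). Its other probe sets gave 0.41 and 0.37, with 0.013 and -0.020 after EGF. SGK1, a kinase induced by glucocorticoids and serum, stood at 654.2 and 751.6 after EGF and at 1112.1 and 1868.4 after serum. Of 15 ribosome biogenesis genes 2 were higher and 5 lower in both stimuli, with a median of -0.07. RRS1, a ribosome assembly factor, was the lowest of them, from 254.2 to 178.3 and from 288.7 to 194.2 (-0.55, SE 0.21, limma adjusted p = 0.636). Of 12 stress response genes 2 were higher and 6 lower in both, and of 14 genes of G2 and mitosis 5 and 7. CDKN1B, which encodes the cell cycle inhibitor p27, went from 211.3 to 135.6 after EGF and from 220.8 to 176.2 after serum (-0.47, SE 0.16, limma adjusted p = 0.603).

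Probe sets without exactly 1 gene symbol were counted by the same 1.5-fold rule. Of 1584 above the filter, 18 were higher in both stimuli, 18 lower in both and 31 opposite. Among the 7731 genes tested these were 88 (1.14%), 56 (0.724%) and 85 (1.1%).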
